A study of Homo sapiens with 15 samples.

Results

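WDR5 peaks of a single fixed width, the commonest in the list and 4 times the shortest one of 156 bp, that carried no tagged MYC made up 3327 of the 17171 peaks of the WDR5 list (19.4%) and of the 20388 peaks in the 3 lists together. They were chosen by peak width and by the absence of any shared base with a wild-type MYC or mutant MYC peak. Both values come from the same chromatin immunoprecipitation sequencing (ChIP-seq) peak calls that are described here. Width, MYC overlap and measures of the same calls, such as file position and spacing, are therefore given as descriptions without a test. The comparison set is the 11370 WDR5 peaks of other widths that also carried no MYC, 10474 of them narrower and 896 wider.

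WDR5 is a WD-repeat scaffold protein. It holds together the MLL/SET histone methyltransferase complexes, which place methyl groups on lysine 4 of histone H3 at active genes, and it is found in several other chromatin complexes. MYC, an oncogenic transcription factor that pairs with MAX on DNA, contacts WDR5 directly, and WDR5 also occupies chromatin by other routes. WDR5 sites without MYC are thus a known part of WDR5 biology. The WDR5 peaks here were called in HEK293, a line of human embryonic kidney origin, and without MYC means without a tagged MYC peak.

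WDR5 was precipitated with a WDR5 antibody from HEK293 cells that received no retrovirus, with purified rabbit IgG as the control. MYC was precipitated through its FLAG tag with M2 agarose from HEK293 cells retrovirally transduced with a virus that carried either MYC of normal sequence (WT-MYC) or WBM-MYC, a mutant deficient in WDR5 binding. Cells with the empty retroviral vector served as the FLAG control. Each of the 5 groups had 3 independent biological replicates. MYC and WDR5 were thus mapped in different cells, and endogenous MYC without a tag is not seen by the FLAG antibody. The sources used here do not say whether the transduced cells were a pool or 1 clone. Each of WT-MYC (2527 peaks), WBM-MYC (690) and WDR5 had a single peak list, which leaves the replicate spread unknown. The intervals below are exact (Clopper-Pearson) 95% intervals over peaks and cover counting error only. Read depth is unknown. Coordinates are hg19, counted from 1.

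The fixed width stood far above all others in the WDR5 list. Of 17171 peaks with 905 distinct widths, 3482 (20.3%) had it. The next commonest widths were 311 bp with 76 peaks, 312 bp with 72 and 358 bp with 66. Within 10 bp on either side, single widths held 5 to 18 peaks, with a median of 10. The shortest width of the list, 156 bp, had 57 peaks. The 3327 fixed-width peaks without MYC covered 2.08 Mb when their lengths were summed, 31.6% of the 6.56 Mb in all WDR5 peaks without MYC.

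Peaks that missed the fixed width by a few bp lay earlier in the list on the median, whereas fixed-width peaks with MYC came about as late as those without. The 6 peaks without MYC that were 1 bp narrower had a median line of 3337.5, and the 10 that were 1 bp wider one of 4502.5. All 140 peaks without MYC within 10 bp of the fixed width had a median line of 3408.5 (interquartile range 1636 to 6061), against 14705 for the fixed-width peaks themselves. On the side of MYC overlap, 155 fixed-width peaks carried MYC, 127 with WT-MYC alone, 5 with WBM-MYC alone and 23 with both, and their median line was 14226. The smallest stretch shared with MYC among these was 17 bp, and 8 shared fewer than 100 bp. The closest peak just outside MYC, on chromosome 17 from 73511235 to 73511858, lay 18 bp from a WT-MYC peak.

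Fixed-width peaks without MYC filled the end of the WDR5 list. Their lines ran from 1146 to 17171, with a median of 14705 and an interquartile range of 12979 to 16034. Peaks of other widths without MYC had a median line of 7447 (4091 to 10821). Narrower ones had a median line of 7852 and wider ones one of 2545, and the fixed-width peaks came later than both. The last 3 deciles of the list held 84.4% of the fixed-width peaks (83.1 to 85.6%) and 17.9% of the others (17.2 to 18.6%). The sources used here do not say what the file order stands for.

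**Figure D1:**
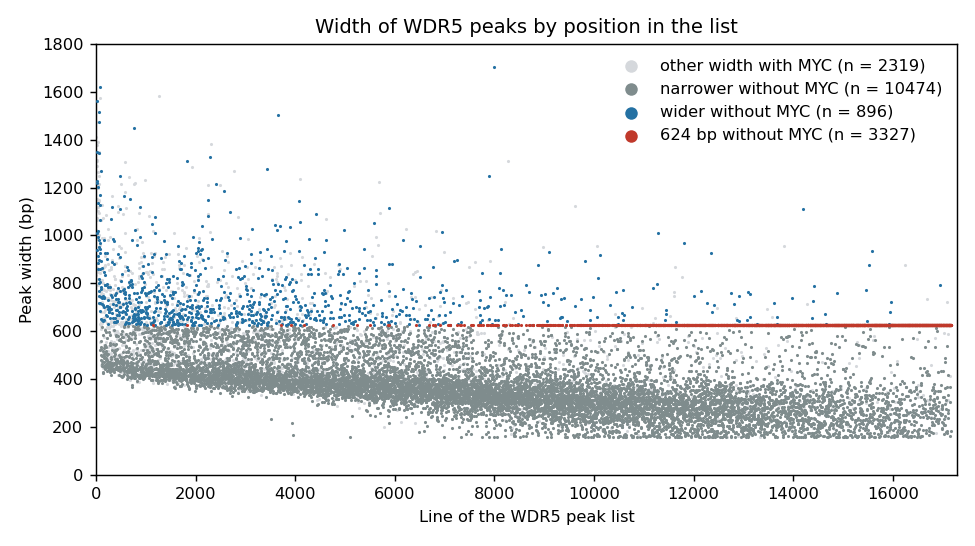
Width of WDR5 peaks (bp) against their line in the list. The 155 fixed-width peaks with MYC are not drawn. Red points are the 3327 peaks of fixed width without MYC, which form a line that thickens towards the end, grey and blue points are narrower (10474) and wider (896) peaks without MYC, and light grey points are peaks of other widths with MYC (2319).

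The rise along the list was steep. Fixed-width peaks were 1 of 1055 WDR5 peaks without MYC in decile 1 and 42 of 1517 in decile 5 (2.77%). They were 348 of 1569 in decile 7 (22.2%, 20.1 to 24.3%), 656 of 1594 in decile 8 (41.2%, 38.7 to 43.6%) and 950 of 1614 in decile 9 (58.9%, 56.4 to 61.3%). In decile 10 they were 1202 of 1635 (73.5%, 71.3 to 75.6%). The longest unbroken run of fixed-width lines, with or without MYC, counted 25 peaks, from line 15659 to line 15683. Over the same deciles the peaks of other widths without MYC grew narrower, from a median of 513.5 bp in decile 1 to 344 bp in decile 5 and 263 bp in decile 10. Wider peaks became rare, with 333 in decile 1 and 9 in decile 10.

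**Figure D2:**
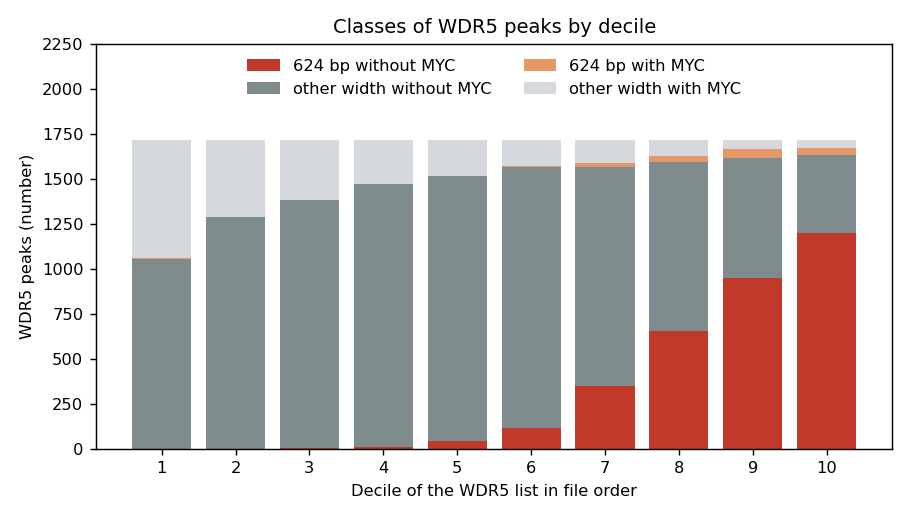
Number of WDR5 peaks in each decile of the list (stacked bars), by class. Red bars, the peaks of fixed width without MYC, grow from 1 in decile 1 to 1202 in decile 10. Peaks of other widths with MYC shrink from 660 to 45. Fixed-width peaks with MYC do not, with 3 in decile 1, 52 in decile 9 and 37 in decile 10.

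The earliest and latest members show the range. The first in the file lay on chromosome 1 from 213031249 to 213031872 (line 1146), 66.4 kb by centres from the nearest WDR5 peak and 65.8 kb from the nearest WT-MYC peak. The next 4 lay on chromosome 15 from 93616157 to 93616780 (line 1820), chromosome 3 from 9404471 to 9405094 (line 3712), chromosome 21 from 34960704 to 34961327 (line 3912) and chromosome 11 from 65479349 to 65479972 (line 4174). None of these 5 overlapped another WDR5 peak. The final 5 lines of the list were all fixed-width peaks without MYC. They lay on chromosome 11 from 727781 to 728404 and from 72433094 to 72433717, chromosome 5 from 36442223 to 36442846, chromosome 12 from 48206463 to 48207086 and chromosome 16 from 1031246 to 1031869. None of them overlapped another WDR5 peak either, and their nearest WDR5 centres lay 7.10 to 164.2 kb away.

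On spacing within the WDR5 list, overlap and distance between centres went in opposite directions. More of them overlapped another WDR5 peak: 948 of 3327 (28.5%, 27.0 to 30.1%), against 22.5% of peaks of other widths without MYC (21.8 to 23.3%) and 23.3% of the narrower ones (22.5 to 24.1%). In the last 5 deciles the shares were closer, 28.0% (26.5 to 29.6%) and 25.8% of other widths (24.6 to 27.1%), and in decile 10 the order turned, with 24.04 and 32.1%. Of the wider peaks without MYC, which lay mostly early in the list, 13.5% overlapped another WDR5 peak (11.3 to 15.9%). A longer peak can reach more neighbours, so distances between centres were set beside this. The part of length in the overlap was not tested. By centres, fewer fixed-width peaks had a WDR5 peak within 1 kb: 1089 (32.7%, 31.1 to 34.4%), against 38.7% of the others (37.8 to 39.6%). In the last 5 deciles, where the members lie, the shares with a centre within 1 kb were 32.3% (30.7 to 33.9%) and 49.2% (47.7 to 50.6%). Against other widths from 500 to 750 bp the direction turned, since 24.97% of those had a WDR5 centre within 1 kb. Only 6.12% of those peaks lay in the last 3 deciles, so file position is not matched there. Over the whole list the median distance to the nearest WDR5 centre was 7.36 kb for fixed-width peaks and 6.98 kb for the others. In the last 5 deciles it was 7.42 and 1.07 kb, while the lower quartiles were 0.373 and 0.337 kb. The fixed-width peaks lay later than the others within those deciles, and the order was not the same in each. In decile 6 the medians were 1.12 kb for the fixed width and 2.80 kb for the others. In deciles 7 to 10 the fixed width had the larger median, from 9.51 against 1.77 kb in decile 7 to 8.03 against 0.519 kb in decile 10. Within 10 kb, 53.0% of the fixed-width peaks and 53.0% of the others had a WDR5 centre over the whole list. In the last 5 deciles these shares were 52.8 and 63.1%. At 100 kb the classes were close over the whole list, with 86.5% of the fixed-width peaks and 87.5% of the others having a WDR5 centre within that distance.

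No overlapping fixed-width peak had its centre very near that of its neighbour. Of 803 overlapping pairs with at least 1 member, 212 joined a pair of members and 591 joined a member to a WDR5 peak outside the class. Centres of paired members lay 199 to 607 bp apart, with a median of 234.5 bp, and 57 of the 212 pairs fell between 199 and 207 bp. In pairs with a non-member the smallest distance was 151.5 bp, the median 266.5 bp and the largest 503 bp. Pairs without any member reached down to 1 bp, and 174 of these 1324 pairs had centres less than 20 bp apart. One peak lay inside the other in 30 of the pairs with a member and in 280 of the 1324 pairs without.

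**Figure D3:**
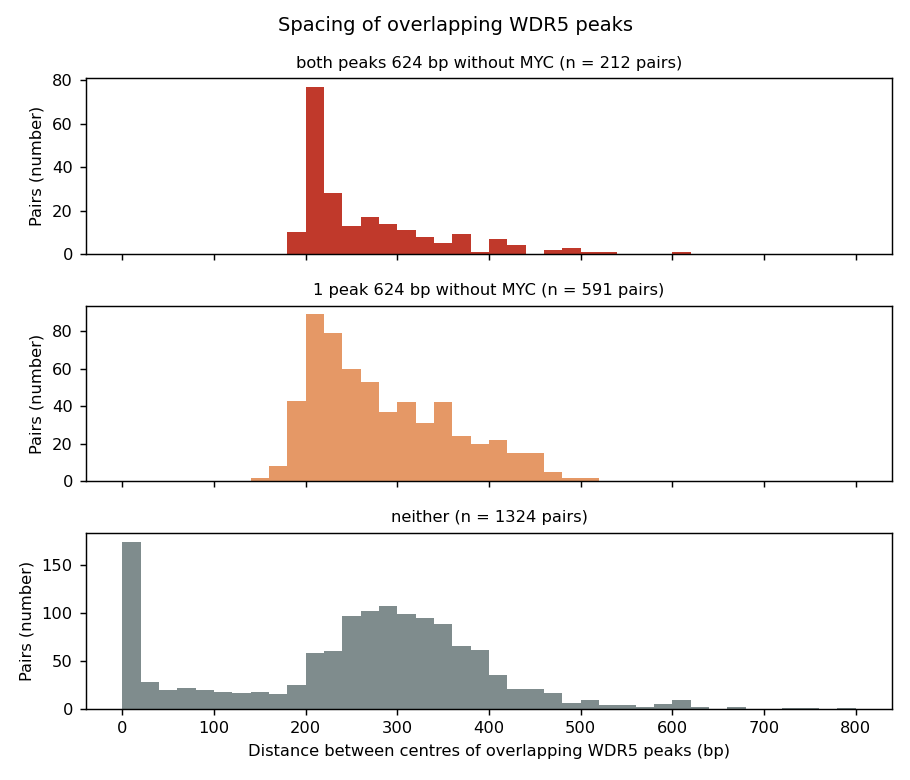
Distance between the centres of overlapping WDR5 peaks (bp, bins of 20 bp), as the number of pairs. The top panel has both peaks of fixed width without MYC (212 pairs, none under 199 bp), the middle panel has 1 such peak (591 pairs, none under 151.5 bp), and the bottom panel has neither (1324 pairs, 174 under 20 bp).

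Of the overlapping members, 567 met a WDR5 peak outside the class, 406 met another member and 25 met both kinds. The partners outside the class were mostly narrow and earlier in the file. They had a median width of 312 bp (256 to 363 bp) and a median line of 8902, against 14389 for the members they overlapped. In 517 of these 591 pairs (87.5%) the partner came first. In the last 5 deciles overlaps were counted from each peak of a class. A pair with both peaks in the class and in those deciles entered from both sides, as earlier and as later. Among members there, 73.5% of 975 such counts had an earlier partner of any width, and among narrower peaks without MYC 63.1% of 1182 had. These shares thus also depend on how many pairs lie within a class. Members lie later than narrower peaks within those deciles too, so the shares are not matched for file position. Partners outside the class carried MYC in 2 of the 591 pairs. A partner shares bases with a member, and the rule keeps MYC off those bases. This count is thus partly set by the rule and is no result about the partners. Of the overlapping members, 881 met 1 peak and 67 met 2, and none met more.

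Among the fixed-width peaks, overlap fell along the list. In decile 5, 29 of 42 overlapped another WDR5 peak (69.0%, 52.9 to 82.4%). The share was 45.2% in decile 6 (35.9 to 54.8%), 33.6% in decile 7 (28.7 to 38.9%), 29.6% in decile 8, 27.8% in decile 9 and 24.04% in decile 10 (21.7 to 26.6%). Narrower peaks without MYC stayed between 22.8 and 26.1% over deciles 5 to 9 and reached 30.7% in decile 10 (26.3 to 35.3%), from 17.2% in decile 1 (14.5 to 20.2%). The members in the first 4 deciles, 14 in all, are too few to give a share.

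**Figure D4:**
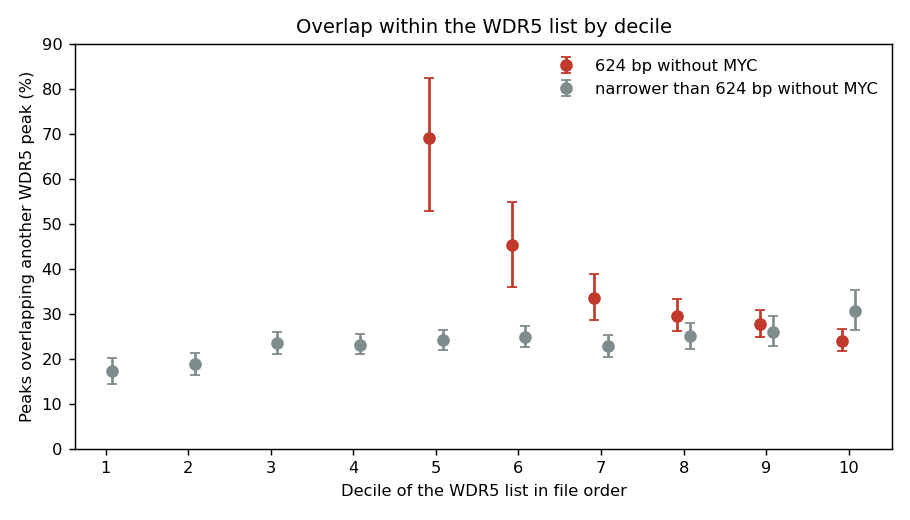
Share of peaks that overlap another WDR5 peak (%), by decile of the list, with exact 95% intervals over peaks. Red points, peaks of fixed width without MYC (deciles with at least 40), fall from 69.0% in decile 5 to 24.04% in decile 10, and grey points, narrower peaks without MYC, go from 17.2% in decile 1 to 30.7% in decile 10 and are nearly flat from decile 5 to decile 9.

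Chains of members were short. Of the fixed-width peaks without MYC, 2921 overlapped or abutted no other member, 194 chains held 2 and 6 chains held 3. The first chain of 3 in genome order, on chromosome 4, joined peaks from 184827217 to 184827840, from 184827510 to 184828133 and from 184827744 to 184828367. Its centres were 293 and 234 bp apart, its lines were 13784, 15927 and 16311, and the nearest MYC peak was 1297 kb away. The median distance from a member to the nearest other member was 107.9 kb (14.3 to 362.5 kb), and for 29.3% of members the nearest WDR5 peak was itself a member. Members made up 19.4% of the WDR5 list. Neither share is matched for file position, so clustering of members is not read from them.

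The first 5 members on chromosome 1 include both spacings. Peaks from 846265 to 846888 (line 14942) and from 851803 to 852426 (line 15859) lay 5.54 kb apart by centres and overlapped nothing. The peaks from 901739 to 902362 (line 14536) and from 902002 to 902625 (line 14950) overlapped, with centres 263 bp apart. The fifth, from 1014942 to 1015565 (line 15642), had its nearest WDR5 centre 36.1 kb away. All 5 lay 33.4 to 89.1 kb from the nearest MYC peak.

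The densest 100-kb window for members was on chromosome 17, from 7700001 to 7800000. It held 8 of them among 12 WDR5 peaks, and the next densest window held 7. Of the other 4 WDR5 peaks there, 2 carried MYC. Members of the window lay 1.14 to 30.1 kb from the nearest WT-MYC peak and came from line 11323 to line 17154. Of all 2633 windows with a member, 2096 held 1, 421 held 2 and 116 held 3 or more.

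At the other end, 10 members had no WDR5 centre within 1 Mb (0.301%, 0.144 to 0.552%), a share close to that of the other widths (0.317%, 0.222 to 0.438%). The 2 most isolated were both on chromosome X. One spanned 84498785 to 84499408 (line 14331) and lay 4122 kb from its nearest WDR5 peak, which was the other, from 80377061 to 80377684 (line 16059). That second peak had a WDR5 centre 2982 kb away on its other side. The next were on chromosome 9 from 137788201 to 137788824 (1882 kb), chromosome 18 from 63418000 to 63418623 (1766 kb) and chromosome 4 from 31997780 to 31998403 (1276 kb).

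Distance to MYC hardly separated the classes. Fixed-width peaks without MYC lay a median of 221.9 kb from the nearest peak of either MYC form (62.4 to 696.3 kb), and the other widths 210.1 kb (65.2 to 699.7 kb). A MYC peak was found within 100 kb of 33.0% of the fixed-width peaks (31.4 to 34.6%) and of 32.9% of the others (32.0 to 33.8%). Very near MYC the shares parted: 59 fixed-width peaks had MYC within 1 kb (1.77%, 1.35 to 2.28%), against 379 of the others (3.33%, 3.01 to 3.68%). Among the others, the share was 3.29% for narrower peaks and 3.79% for wider ones (2.64 to 5.26%). In the last 5 deciles it was 1.74% for the fixed width and 4.10% for other widths. Gaps are measured from peak edges, and the part of the width in this difference was not tested.

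The 5 members closest to MYC lay 18 to 143 bp from it. After the chromosome 17 peak above came chromosome 1 from 234744404 to 234745027 (43 bp from WT-MYC), chromosome 11 from 65082287 to 65082910 (98 bp from WBM-MYC), chromosome 4 from 125633905 to 125634528 (139 bp from WT-MYC) and chromosome 1 from 93914187 to 93914810 (143 bp from WBM-MYC). The middle 3 of these also overlapped a narrower WDR5 peak. The 3 members farthest from MYC, all on chromosome 15, started at 28344105, 29395712 and 29863053 and lay 20049 to 21568 kb from it.

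Location was not used by the rule and was tested. Fixed-width peaks without MYC were over-represented on chromosomes X and 19 and under-represented on chromosomes 3 and 4, compared with other widths without MYC. These 4 of 23 chromosomes passed a two-sided Fisher's exact test at an adjusted p under 0.05 (Benjamini-Hochberg, all chromosomes), 17.4% of those tested, with 8.7% higher and 8.7% lower. All 23 held members, from 36 on chromosome 21 to 351 on chromosome 1. Peaks are the units of this test, and neighbouring peaks are not independent, so its p-values can be too small.

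The excess on chromosome X was the largest. Chromosome X held 177 fixed-width peaks (5.32%, 4.58 to 6.14%) and 228 of the others (2.01%, 1.76 to 2.28%), an odds ratio of 2.75 (2.23 to 3.37, Fisher's exact test, adjusted p = 4.38e-20). Seen the other way, 43.7% of the WDR5 peaks without MYC on chromosome X had the fixed width (38.8 to 48.7%), against 22.6% over all chromosomes. Stratified by decile of the file, the Mantel-Haenszel odds ratio came to 2.76 (2.09 to 3.65, exact conditional test, adjusted p = 8.00e-12). In decile 8 fixed-width peaks were 40 of 64 on this chromosome (62.5%), in decile 9 51 of 63 (81.0%) and in decile 10 53 of 58 (91.4%). Over all chromosomes the shares in these deciles were 41.2, 58.9 and 73.5%. The other-width peaks of chromosome X were also narrow and late, with a median width of 305 bp and a median line of 8753.5, against 367 bp and 7447 over all chromosomes. All 8 of the 5-Mb bins tested on chromosome X had more than the overall share of fixed-width peaks (29.0 to 55.6%), and without any 1 of its 27 bins the odds ratio stayed between 2.65 and 2.88.

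Chromosome 19, the most gene-dense human chromosome, had a smaller excess. It held 279 fixed-width peaks (8.39%, 7.47 to 9.38%) and 717 of the others (6.31%, 5.87 to 6.77%), an odds ratio of 1.36 (1.17 to 1.57, Fisher's exact test, adjusted p = 0.000507). Over deciles of file position it was 1.49 (1.22 to 1.81, exact conditional test, adjusted p = 0.000794). Of the 10 bins tested there, 9 were above the overall share (23.5 to 37.8%) and 1, from 35 to 40 Mb, was below it (14.9%). The median gap to MYC on chromosome 19 was 52.8 kb for members and 69.6 kb for the other widths.

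Chromosomes 4 and 3 held a smaller share of members than of other widths. Chromosome 4 held 96 fixed-width peaks (2.89%, 2.34 to 3.51%) and 482 of the others (4.24%, 3.88 to 4.63%), an odds ratio of 0.671 (0.532 to 0.840, Fisher's exact test, adjusted p = 0.00238). Over deciles the odds ratio was 0.448 (0.341 to 0.589, exact conditional test, adjusted p = 6.63e-08); WDR5 peaks of chromosome 4 had median lines of 15251 for the fixed width and 8471 for the others. Chromosome 3 held 146 (4.39%, 3.72 to 5.14%) and 652 (5.73%, 5.31 to 6.18%), an odds ratio of 0.755 (0.623 to 0.908, Fisher's exact test, adjusted p = 0.0133). Over deciles the odds ratio of chromosome 3 was 0.690 (0.549 to 0.869, exact conditional test, adjusted p = 0.00931). Its call was lost on autosomes alone (0.782, Fisher's exact test, adjusted p = 0.0611) and without either of 2 of its 40 bins. By odds ratio, leaving out the bin from 10 to 15 Mb weakened it most (0.783, Fisher's exact test, adjusted p = 0.0508).

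**Figure D5:**
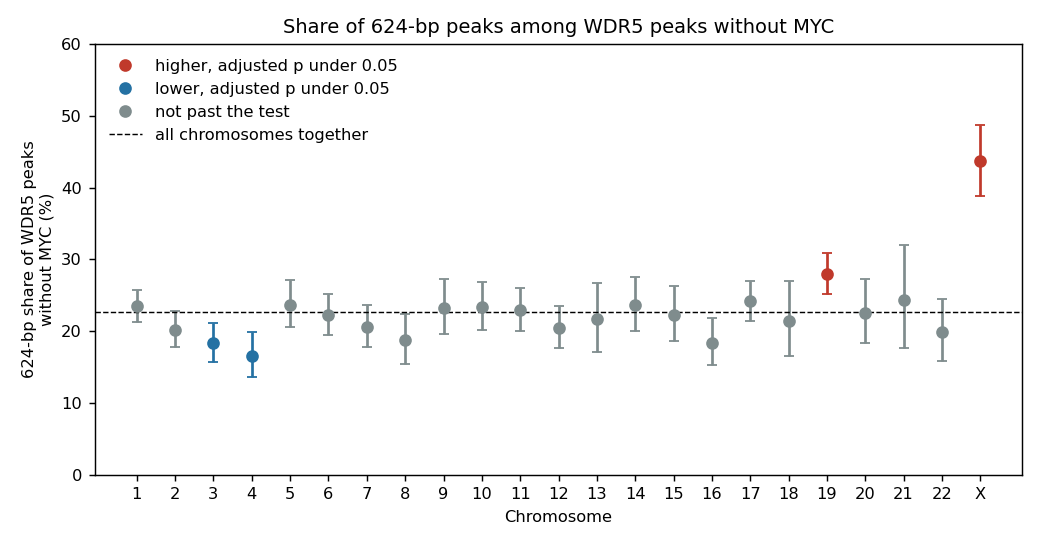
Share of fixed-width peaks among WDR5 peaks without MYC (%) on each chromosome, with exact 95% intervals over peaks and the share over all chromosomes as a dashed line (22.6%). Red points (chromosomes 19 and X) are higher and blue points (3 and 4) lower at an adjusted p under 0.05 by Fisher's exact test, and chromosome X stands apart at 43.7%.

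In 5-Mb bins, 2 of the 302 with at least 20 WDR5 peaks without MYC passed the same test (0.662%), all with a higher share of members (0.662%) and none with a lower one (0%; 7 were lower at an unadjusted p under 0.05). On chromosome 19 the bin from 0 to 5 Mb held 52 fixed-width peaks of 142 (36.6%, 28.7 to 45.1%, odds ratio 1.99, adjusted p = 0.0317, Fisher's exact test). On chromosome X the bin from 100 to 105 Mb held 15 of 27 (55.6%, 35.3 to 74.5%, odds ratio 4.29, adjusted p = 0.0317, Fisher's exact test). Neither call held when overlapping peaks were merged (Fisher's exact test, odds ratios 1.96 and 3.94, adjusted p = 0.104 and 0.129) or when file position was stratified (exact conditional test, odds ratios 3.23 and 3.77, adjusted p = 0.0790 and 0.356). The odds ratios stayed above 1 in each. The bin shares ranged from 0 to 55.6% with a median of 21.4%, and the lowest, on chromosome 12 from 25 to 30 Mb, held none of 28 (upper 95% limit 12.3%, Fisher's exact test, adjusted p = 0.0837).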

How the data were processed

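The authors deposited 1 peak list each for WT-MYC, WBM-MYC and WDR5, with 3 columns (chromosome, start, end) and no score. Reads were handled with CASAVA 1.8.2 and Bowtie 0.12.7 on build hg19, per the submitters' processing notes. The sources used here do not give the peak caller, its settings, how controls were used or how replicates were treated, and any of them can set peak width and file order.

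Members have end minus start of exactly 624 bp, called the fixed width, and share no bp with a MYC peak. bedtools 2.31.1 gave the same 3327. Members and comparisons were chosen with earlier results of these data known. Starts were converted to count from 1. Deciles are equal parts of the list in file order. Fisher's exact tests, Mantel-Haenszel estimates with exact conditional tests and Benjamini-Hochberg adjustment (threshold 0.05) were run in Python 3.11.15 with scipy 1.17.1 and statsmodels 0.14.6, after being tested on simulated data. Tests covered each chromosome and each 5-Mb bin holding 20 peaks or more without MYC. Regions were named by rule: the first 5 on chromosome 1, the first and last 5 in the file, the 5 most isolated, the longest chain, the densest 100-kb window, the 5 closest to MYC and the bins called. The 3 farthest from MYC, the lowest bin and the chromosome 19 bin below the overall share were named after their values were seen. So was the chromosome 3 bin whose removal weakened the odds ratio most.

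A gene table at hand was of GRCh38.p14, not hg19: the last WDR5 peak of chromosome 9 ends at 140635148, beyond its last gene there at 138331809. Genes, promoters and peak sequences were therefore not analysed here, and the planned test of distance to start sites was not run.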

Additional observations from a re-analysis of the deposited data

How the results depend on the processing

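The number of members was 3344 when MYC had to cover 50% of the shorter peak and 3268 when MYC within 1 kb also removed a peak. The share in the last 3 deciles was 85.8% within the last 5 deciles and 86.6% among peaks overlapping no other WDR5 peak. For the other widths it was 43.2 and 16.7% there, 6.12% for widths from 500 to 750 bp and 19.1% for narrower peaks. Leaving out the first 5 deciles can only raise this share in both classes, so that rise is no result. The share of other widths with a WDR5 centre within 1 kb was 37.5% when MYC within 1 kb removed a peak and 24.97% for widths from 500 to 750 bp. It was 49.2% in the last 5 deciles and 40.6% for narrower peaks. Against widths of 500 to 750 bp the members were thus closer to WDR5 neighbours, not farther, without matching for file position. The share of other widths with MYC within 100 kb was 30.8% in the last 5 deciles. The number of chromosomes called was 2 on autosomes alone and 8 among peaks overlapping no other, and 4 to 6 otherwise. Chromosomes X, 19 and 4 were called under each setting that included them. Chromosome 16, just short in the main test (Fisher's exact test, adjusted p = 0.0529), was called when MYC within 1 kb removed a peak and with overlapping peaks merged. It was also called among peaks overlapping no other and against narrower peaks. Chromosomes 2, 5, 8 and 17 were called under some settings only. The number of 5-Mb bins called was 0 when MYC within 1 kb removed a peak (21 at an unadjusted p under 0.05), 0 with overlapping peaks merged (14), 0 against narrower peaks (22) and 0 over deciles of file position (26). It was 1 in the last 5 deciles, 1 on autosomes and 1 among peaks overlapping no other, and 5 with bins of 10 Mb. The causes were not tested. Settings with peaks overlapping no other, with narrower peaks and without single bins were chosen after seeing the data. No paired analysis was possible because there is 1 peak list per group. The same holds for leaving out replicates.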

Other observations

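The 155 fixed-width WDR5 peaks with MYC were not part of the class described above, and their location was examined after the chromosome results were seen. They too came late, with a median line of 14226, and 45.2% overlapped another WDR5 peak (37.2 to 53.3%). Chromosome X held 3 of them (1.94%) and 25 of the 2319 WDR5 peaks of other widths with MYC (1.08%), an odds ratio of 1.81 (0.346 to 6.04; two-sided Fisher's exact test, adjusted p = 0.509 over the 4 chromosomes tested). Chromosome 19 held 19 (12.3%) and 172 (7.42%), an odds ratio of 1.74 (0.993 to 2.91, Fisher's exact test, adjusted p = 0.165). Chromosome 3 had an odds ratio of 0.664 (0.175 to 1.797) and chromosome 4 one of 1.18 (0.305 to 3.27), the latter in the opposite direction to the peaks without MYC (Fisher's exact test, adjusted p = 0.775 for both). All 4 intervals hold 1 and the odds ratio of the peaks without MYC on that chromosome.

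MYC overlap was also compared at like file positions. In deciles 7, 8, 9 and 10 the share with MYC was 5.18, 5.07, 5.19 and 2.99% for the fixed width, and 9.56, 8.58, 7.13 and 9.41% for other widths. MYC overlap and width define the class, so these are descriptions without a test.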
